A study of Homo sapiens with 9 samples.

Results

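Solute carriers (SLC genes) encode membrane proteins that move amino acids, sugars, metals, vitamins, ions and mitochondrial metabolites across cell membranes. The genes described here are protein-coding SLC genes whose symbol is SLC, a number, the letter A and a number. SLC genes with another letter in that place were not considered. The genes kept had a mean of at least 5 FPKM in Huh7 cells over all 9 libraries of the series. FPKM stands for fragments per kilobase of transcript relative to the depth of the library. SLC2A1, SLC7A11 and SLC25A15 were set aside by the same rule, and SLC7A11, at 3.66 FPKM, would not have reached the limit. This left 91 of the 311 protein-coding SLC genes of that symbol form in the deposited table, and all 91 entered the tests. The members were thus chosen by their measured level, and that level is a description here.

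Huh7 cells are a long-used human hepatocellular carcinoma line. Poly(A) RNA was profiled in 3 groups of 3 libraries: shZMAT2-1 and shZMAT2-2, named in the labels for hairpins against ZMAT2, and a control that the labels call only control. The labels give no vector, dose or time, do not say whether an arm is 1 clone, and do not state that the replicates are independent cultures. The p-values therefore speak only of the spread among these 9 libraries, which may be technical. ZMAT2 belongs to the spliceosome and carries a zinc finger. The study asked if this splicing factor drives hepatocellular carcinoma by way of mRNA splicing.

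In a hepatocyte, carriers sit on the basolateral face towards the blood and on the apical face towards the bile canaliculus. Most carriers of family SLC25 lie in the inner mitochondrial membrane. Several plasma membrane carriers work only with a partner chain: SLC7A5, which imports leucine and other large neutral amino acids, reaches the surface bound to SLC3A2. Carriers of amino acids, lactate and citrate are widely studied in liver cancer because they feed growth and export its waste.

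The main result was a negative one. No SLC member passed the threshold (limma, Benjamini-Hochberg adjusted p under 0.05 over all 11245 genes tested) in shZMAT2-1, in shZMAT2-2, in the mean of both arms or between the arms. Among all genes tested the called share was 0.08% in shZMAT2-1 against control, 0.587% in shZMAT2-2 against control, 0.542% in the mean of both arms against control and 0% in shZMAT2-2 against shZMAT2-1. At an unadjusted p under 0.05 there were 8, 9, 9 and 2 members in these 4 comparisons, or 8.79%, 9.89%, 9.89% and 2.2% of the members, beside 5.76%, 7%, 6.93% and 4.14% of all genes. The smallest adjusted p of any member was 0.272, 0.0945, 0.103 and 0.657 in the same order. The 95% interval of a member's log2 fold change reached 0.613 to either side for an arm and 0.531 for the mean of both arms, as medians over the 91 members. The calls depended on the model. A mitochondrial covariate was also fitted, the log2 of each library's summed FPKM of mitochondrially encoded genes, less its mean over libraries. With it, 7, 15, 16 and 0 members were called in the same 4 comparisons (7.69%, 16.5%, 17.6% and 0% of members). Beside these, 3.73%, 9.84%, 9.75% and 0% of all genes were called.

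The promoters of the 3 members with the highest fold changes in the mean of both arms among those whose knockdown libraries all lay above the controls are shown first. The sequences are RefSeq's on GRCh38.p14, from 250 bases before a start annotated by RefSeq to 50 bases after it. That start need not be the start of the gene in the deposited table. For another member, SLC35A4, the window begins at 140564578, downstream of the deposited start at 140564446. A window, that of SLC44A3 included, may thus hold transcribed bases before its start, which was not tested. Capitals mark the GC box (GGGCGG on either strand) and the E-box (CACGTG). SLC7A5 lies at chr16:87869458-87869757 on the minus strand, SLC12A2 at chr5:128083516-128083815 on the plus strand and SLC44A3 at chr1:94820351-94820650 on the plus strand.
SLC7A5: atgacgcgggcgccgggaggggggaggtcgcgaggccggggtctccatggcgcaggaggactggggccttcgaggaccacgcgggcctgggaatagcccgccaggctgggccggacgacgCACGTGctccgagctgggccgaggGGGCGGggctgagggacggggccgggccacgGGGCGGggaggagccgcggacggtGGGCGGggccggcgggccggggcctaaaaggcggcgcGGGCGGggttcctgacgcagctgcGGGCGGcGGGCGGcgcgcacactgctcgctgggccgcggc
SLC12A2: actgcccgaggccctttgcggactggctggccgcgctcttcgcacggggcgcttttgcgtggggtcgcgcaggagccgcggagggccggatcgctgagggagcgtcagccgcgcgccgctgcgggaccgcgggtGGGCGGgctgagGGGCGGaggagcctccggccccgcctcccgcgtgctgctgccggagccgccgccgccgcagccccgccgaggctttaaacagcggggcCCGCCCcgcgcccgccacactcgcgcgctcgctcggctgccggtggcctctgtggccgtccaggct
SLC44A3: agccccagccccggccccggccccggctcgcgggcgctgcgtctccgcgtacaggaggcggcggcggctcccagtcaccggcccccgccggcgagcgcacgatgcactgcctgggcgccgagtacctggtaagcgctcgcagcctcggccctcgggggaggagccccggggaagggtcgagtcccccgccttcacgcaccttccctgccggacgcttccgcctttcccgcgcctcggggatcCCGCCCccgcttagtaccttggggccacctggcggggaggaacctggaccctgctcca
The SLC7A5 promoter holds 6 GC boxes and 1 E-box, whose first base lies at -130 from the start. The SLC12A2 promoter holds 3 GC boxes and the SLC44A3 promoter 1. None of the 3 holds a TATA box, a CCAAT box, an amino acid response element or an AP-1 site, whose letters follow.

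RefSeq promoters were found for 74 of the 91 members and compared with 35116 promoters of the same length. The members' promoters were rich in G and C, with a median of 68.5% against 58.7% over all promoters. A GC box was present in 74.3% of members' promoters and in 45.0% of all. The CCAAT box was present in 41.9% of members' promoters against 34.6% of all, and the TATA box (TATAAA) in 6.76% against 11.5%. The amino acid response element (TGATGNAA) was present in 5.41% against 3.62%, the E-box in 13.5% against 7.26% and the AP-1 site (TGANTCA) in 9.46% against 7.71%. Each motif was searched on both strands, and no motif contains another. These are matches of letters in a window and describe genes chosen for being expressed.

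The libraries differed in a way that touches every result on these genes. Depth recovered from the deposited values was 18430000 to 23740000 fragments. The mitochondrially encoded genes took 8.25%, 16.4% and 7.70% of the fragments in shZMAT2-1 replicates 1, 2 and 3, 27.0%, 14.5% and 16.6% in shZMAT2-2, and 7.86%, 43.2% and 8.28% in control. Control replicate 2 therefore stands apart from the other controls, and most fold changes of named members against control are given below both with and without it. The 91 members together summed to 2166 ± 327 FPKM in shZMAT2-1, 1695 ± 250 in shZMAT2-2 and 1742 ± 652 in control (SD, n = 3 each). Of the summed FPKM of genes that are not mitochondrially encoded, the members held 1.06% ± 0.0280 in shZMAT2-1, 0.991% ± 0.0486 in shZMAT2-2 and 0.965% ± 0.0991 in control.

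ZMAT2 was examined as the check of the labels. It had 15.2, 12.8 and 13.2 FPKM in shZMAT2-1, 22.1, 20.3 and 20.8 FPKM in shZMAT2-2, and 37.5, 32.8 and 39.2 FPKM in control. The groups did not overlap, and ZMAT2 stood at 37.6% of the control mean in shZMAT2-1 and at 57.7% in shZMAT2-2. It fell in shZMAT2-1 (log2 fold change -1.35, SE 0.17, limma adjusted p 0.0283) and had -0.76 in shZMAT2-2 (SE 0.17, adjusted p 0.113). Leaving out any library other than control replicate 2 gave -1.42 to -1.30 in shZMAT2-1 with adjusted p of 0.0831 to 0.237, and without control replicate 2 it was -1.42 (adjusted p 0.00951). The 12 hepatocyte and Huh7 markers were all at a mean of at least 5 FPKM, with ALB at 2105 and AFP at 1197 FPKM, which fits the labelled line. Of the markers of other cell types, fibroblast genes summed to 1.54 to 4.18 FPKM over the 9 libraries and endothelial genes to 0.695 to 1.70 FPKM. Leukocyte genes summed to 2.51 to 8.77 FPKM, led by CD14 at a mean of 5.67. The cholangiocyte list reached 60.7 to 87.1 FPKM through SOX9 and KRT19, and its part in the results was not tested.

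The members spanned a wide range of level. Over all 9 libraries 39 had a mean under 10 FPKM, 38 a mean of 10 to 30 FPKM and 14 a mean of at least 30 FPKM, with a median of 12.3 FPKM. The top 10 held 41.3% of the members' summed level. In the library where each member was lowest it still had about 731 fragments as a median over members, and the lowest value of all was 91 fragments, for the 1 member under 100. Just inside the limit of 5 FPKM lay SLC25A28 at 5.36 FPKM, a mitochondrial iron carrier, SLC19A1 at 5.18, the reduced folate carrier, and SLC22A23 at 5.17. Just outside lay SLC25A35 at 4.91, SLC25A4 at 4.82, the muscle and heart adenine nucleotide carrier, and SLC25A22 at 4.79, a glutamate carrier.

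**Figure D1:**
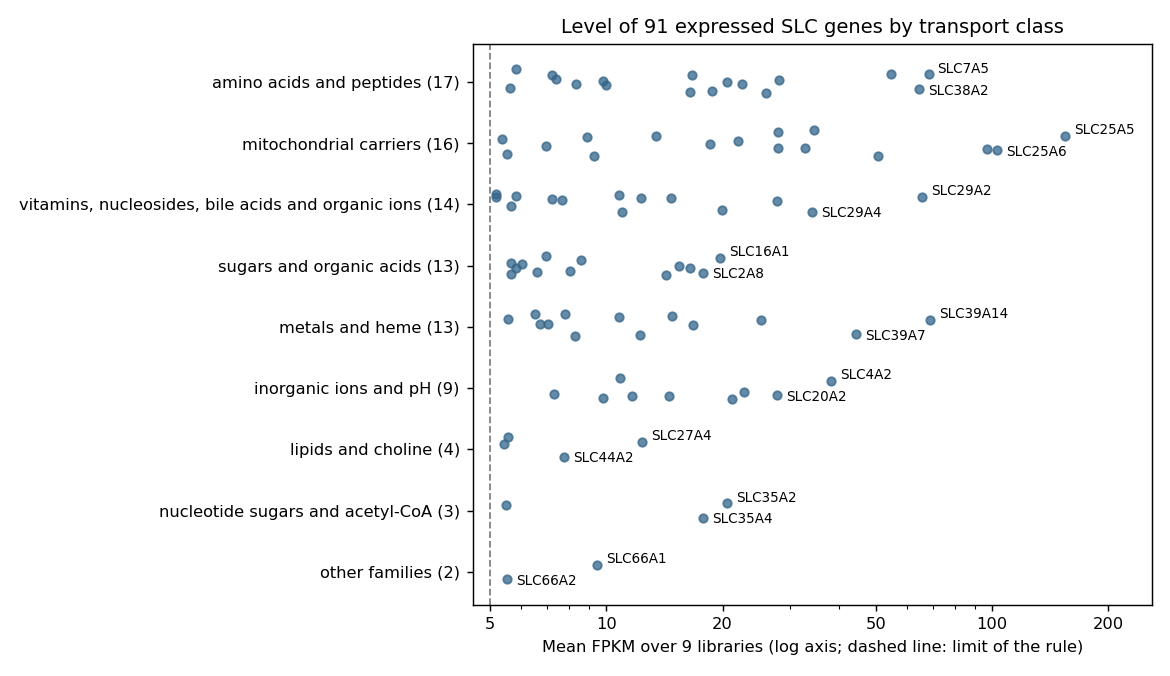
Mean FPKM of each of the 91 SLC genes over the 9 libraries (log axis, 1 point per gene), by transport class with the number of members in brackets, the upper 2 of each class named. Mitochondrial carriers reach furthest to the right, with SLC25A5 at 154 FPKM, and every point lies above the dashed limit of 5 FPKM because the rule requires it.

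Carriers were grouped by the substrates of their SLC family. Only genes of the symbol form given above were counted, so a class may lack relatives with another letter. The class goes by family number, so that SLC5A6, a vitamin carrier, stands with the sugar families and SLC29A4, a monoamine carrier, with the nucleoside families. Of the genes annotated in each class, 17 of 56 amino acid and peptide carriers were members, 16 of 47 mitochondrial carriers, 14 of 55 carriers of vitamins, nucleosides, bile acids and organic ions, 13 of 54 carriers of sugars and organic acids, and 13 of 33 metal and heme carriers. A further 9 of 47 carriers of inorganic ions, 4 of 10 lipid and choline carriers, 3 of 6 nucleotide sugar and acetyl-CoA carriers and 2 of 3 genes of family SLC66 were members. By the Gene Ontology terms in the deposited table, 55 members (60.4%) are placed in the plasma membrane, against 18.7% of annotated tested genes. The basolateral membrane held 25 members (27.5%, against 1.17%) and the apical membrane 21 (23.1%, against 1.69%). The mitochondrial inner membrane held 14 members and the lysosomal membrane 11. Of the mitochondrial carrier class, SLC25A17 and SLC25A44 were not placed in the inner membrane by these terms.

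Amino acid and peptide carriers held 20.9% of the members' summed level. SLC7A5 led the class with a mean of 68.4 FPKM, ahead of SLC38A2 at 64.7, a sodium-coupled importer of small neutral amino acids, and SLC43A1 at 54.6, a further carrier of large neutral amino acids. SLC7A5 had 92.6, 82.8 and 87.0 FPKM in shZMAT2-1, 58.7, 85.2 and 87.6 FPKM in shZMAT2-2, and 50.9, 21.3 and 49.3 FPKM in control. All 6 knockdown libraries lay above all 3 controls, and control replicate 2 was the lowest library. The log2 fold change was 1.19 in shZMAT2-1 and 0.99 in shZMAT2-2 (SE 0.33 each), and 1.09 in the mean of both arms (SE 0.29, limma adjusted p 0.2001). Without control replicate 2 it was 0.69 in the mean of both arms (adjusted p 0.104). With libraries scaled by median-of-ratios size factors it was 0.98 (adjusted p 0.0124), and scaled on genes that are not mitochondrially encoded it was also 0.98 (adjusted p 0.00944), so the call depends on the scaling. With the mitochondrial covariate the mean of both arms was 1.06 (limma adjusted p 0.000286). SLC7A5 has 2 named pseudogenes in GENCODE 29 and overlaps an lncRNA on the other strand, and the sources used here do not say how such reads were assigned.

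SLC3A2, the partner chain of SLC7A5, did not share that pattern. It had 48.7, 20.3 and 44.4 FPKM in shZMAT2-1, 12.5, 19.7 and 24.3 FPKM in shZMAT2-2, and 38.0, 8.15 and 35.9 FPKM in control. Its 3 groups overlapped, with a log2 fold change of 0.62 in shZMAT2-1, -0.29 in shZMAT2-2 and 0.16 in the mean of both arms. These values were -0.06, -0.98 and -0.52 without control replicate 2, and none was called. The direction in shZMAT2-1 and in the mean of both arms thus rested on that library, while shZMAT2-2 was negative either way. SLC38A2 had 57.8, 74.6 and 60.4 FPKM in shZMAT2-1, 61.8, 88.1 and 56.7 FPKM in shZMAT2-2, and 72.3, 43.6 and 66.7 FPKM in control, and its groups overlapped too.

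Both further amino acid members with separated groups belong to family SLC38, which moves glutamine. SLC38A3, the system N glutamine transporter of the liver, had 18.6, 20.9 and 20.1 FPKM in shZMAT2-1, 24.6, 20.5 and 25.1 FPKM in shZMAT2-2, and 12.7, 13.3 and 13.6 FPKM in control. It differed from SLC7A5 in that control replicate 2 lay between the other controls, at 1.01 times their mean. Its log2 fold change was 0.56 in shZMAT2-1 (SE 0.17, limma adjusted p 0.469), 0.78 in shZMAT2-2 (SE 0.17, adjusted p 0.0945) and 0.67 in the mean of both arms (SE 0.15, adjusted p 0.103). Without control replicate 2 the last 2 values were 0.79 (adjusted p 0.0274) and 0.68 (adjusted p 0.0384). With the mitochondrial covariate the mean of both arms was 0.67 (limma adjusted p 0.00144). SLC38A7, a glutamine exporter of the lysosomal membrane, had 5.83, 5.85 and 5.79 FPKM in shZMAT2-1, 6.42, 6.33 and 6.30 FPKM in shZMAT2-2, and 4.56, 4.65 and 4.83 FPKM in control. The difference was small beside that of SLC38A3 but the libraries lay close together within each group (log2 fold change 0.32 in the mean of both arms, SE 0.12, limma adjusted p 0.559). It was 0.32 both without control replicate 2 (adjusted p 0.167) and with the mitochondrial covariate (adjusted p 0.0207). In the remaining 14 amino acid members the 6 knockdown libraries overlapped the controls. Their log2 fold changes in the mean of both arms ran from -0.43 for SLC7A2, a cationic amino acid carrier of the liver, to 0.45 for SLC7A6, which exchanges cationic for neutral amino acids. Both were lower without control replicate 2, at -0.70 for SLC7A2 and 0.23 for SLC7A6.

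**Figure D2:**
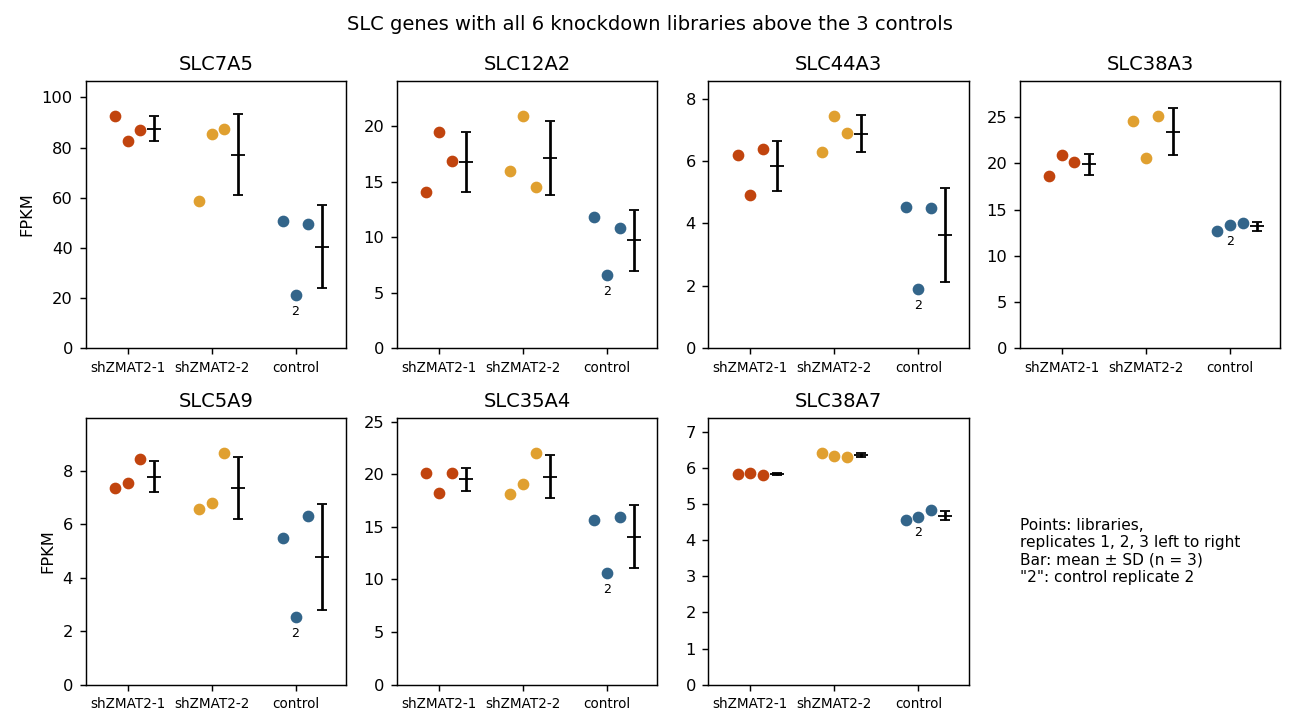
FPKM of the 7 SLC genes whose 6 knockdown libraries all lie above the 3 control libraries, each on an axis from 0, with 1 point per library and the mean ± SD (n = 3) beside each group. Control replicate 2, marked 2, is the lowest point for SLC7A5, SLC12A2, SLC44A3, SLC5A9 and SLC35A4, but not for SLC38A3 and SLC38A7.

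Over all members, 7 (7.69%) had every knockdown library above every control library, and the same held for 4.69% of all genes tested. None had every knockdown library below every control (0.685% of all genes). Against control, shZMAT2-1 alone lay above for 13 members (14.3%, against 9.1% of genes) and below for 1, SLC25A43 (1.83% of genes), named after its values were seen. In shZMAT2-2 the counts were 10 above (11%, against 11.9% of genes) and 0 below (1.52% of genes). The share of members above control was higher than that of all genes in shZMAT2-1 and close to it in shZMAT2-2, and the difference was not tested. Members were chosen at a mean of at least 5 FPKM, a higher level than the filter for all genes. Besides SLC7A5, SLC38A3 and SLC38A7, the 7 members were SLC12A2, SLC44A3, SLC5A9 and SLC35A4.

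SLC12A2, the sodium, potassium and chloride cotransporter, had 14.1, 19.5 and 16.9 FPKM in shZMAT2-1, 15.99, 20.9 and 14.5 FPKM in shZMAT2-2, and 11.8, 6.58 and 10.8 FPKM in control. The log2 fold change in the mean of both arms was 0.77 (SE 0.21, limma adjusted p 0.242), and it was 0.54 without control replicate 2. The highest control and the lowest knockdown library were 11.8 and 14.1 FPKM, so the groups were separated by less than the spread within each arm. SLC44A3, a choline transporter-like protein, had 6.18, 4.92 and 6.38 FPKM in shZMAT2-1, 6.27, 7.44 and 6.91 FPKM in shZMAT2-2, and 4.53, 1.89 and 4.48 FPKM in control. Its fold change was 0.72 (SE 0.22, limma adjusted p 0.306), and 0.41 without control replicate 2, which was far below the other controls. With median-of-ratios scaling it was 0.64 (adjusted p 0.0258).

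SLC5A9, a sodium-coupled carrier of mannose and glucose, had 7.36, 7.53 and 8.43 FPKM in shZMAT2-1, 6.56, 6.80 and 8.67 FPKM in shZMAT2-2, and 5.47, 2.54 and 6.30 FPKM in control. The gap between the groups was narrow, since control replicate 3 lay just under shZMAT2-2 replicate 1. The log2 fold change in the mean of both arms was 0.63 (SE 0.23, limma adjusted p 0.501), and 0.31 without control replicate 2. SLC35A4, a Golgi member of the nucleotide sugar transporter family, had 20.1, 18.2 and 20.1 FPKM in shZMAT2-1, 18.1, 19.1 and 22.1 FPKM in shZMAT2-2, and 15.6, 10.6 and 15.9 FPKM in control. Both arms lay at nearly the same level, with a fold change of 0.47 (SE 0.17, limma adjusted p 0.527), and of 0.29 without control replicate 2. With the mitochondrial covariate the mean of both arms was 0.61 for SLC5A9 (limma adjusted p 0.0104) and 0.46 for SLC35A4 (adjusted p 0.00678). For SLC12A2 and SLC44A3 it was 0.76 (limma adjusted p 0.0118) and 0.70 (adjusted p 0.000468). The fold changes of these 4 genes were thus about as large with the covariate as without it, and smaller without control replicate 2.

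Mitochondrial carriers were the most abundant class, with 33.1% of the members' summed level. SLC25A5 and SLC25A6, the adenine nucleotide carriers that exchange ATP for ADP across the inner membrane, had means of 154 and 103 FPKM. They were followed by SLC25A1 at 96.7 FPKM, the citrate carrier that supplies acetyl-CoA for lipid synthesis, and SLC25A3 at 50.7, the phosphate carrier. SLC25A5 had 237, 117 and 222 FPKM in shZMAT2-1, 95.8, 128 and 149 FPKM in shZMAT2-2, and 194, 60.8 and 186 FPKM in control. SLC25A6 had 126, 106 and 114 FPKM in shZMAT2-1, 97.0, 98.5 and 122 FPKM in shZMAT2-2, and 100.04, 69.0 and 95.2 FPKM in control. Within each group SLC25A6 moved less between libraries than SLC25A5. GENCODE 29 names 9 pseudogenes of SLC25A5, 6 of SLC25A6 and 5 of SLC25A1, so these levels are uncertain by the reads that such copies share. In all, 13 members have a pseudogene of their name.

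No mitochondrial carrier had its knockdown libraries all above or all below the controls. In shZMAT2-1 the class had a median log2 fold change of 0.42 with 13 of 16 positive, and in shZMAT2-2 of 0.05 with 11 of 16 positive. Without control replicate 2 these medians were 0.02 and -0.43. The direction in shZMAT2-2 therefore rested on that library, and no call was made in either arm. SLC25A20, the carnitine and acylcarnitine carrier of fatty acid oxidation, lay at a mean of 18.6 FPKM, and SLC25A13, the aspartate and glutamate carrier of the urea cycle, at 27.9 FPKM. SLC25A13 varied little within either arm, with 31.7, 27.5 and 30.9 FPKM in shZMAT2-1, 27.0, 29.6 and 28.8 FPKM in shZMAT2-2, and 30.3, 16.3 and 29.2 FPKM in control.

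Carriers of vitamins, nucleosides and organic ions were led by SLC29A2 at 65.7 FPKM, an equilibrative nucleoside transporter, and SLC29A4 at 34.1 FPKM, the plasma membrane monoamine transporter. SLC29A2 had 82.6, 57.1 and 79.8 FPKM in shZMAT2-1, 44.1, 55.2 and 65.0 FPKM in shZMAT2-2, and 79.6, 46.0 and 82.3 FPKM in control. SLC29A4 had 39.2, 32.9 and 37.8 FPKM in shZMAT2-1, 27.7, 33.1 and 41.4 FPKM in shZMAT2-2, and 37.3, 22.2 and 35.0 FPKM in control. In neither gene, nor in the rest of the class, did all 6 knockdown libraries lie above or below the controls. The thiamine carriers SLC19A2 and SLC19A3 lay at 7.67 and 10.8 FPKM, the vitamin C carrier SLC23A2 at 19.9, and the riboflavin carrier SLC52A2 at 7.22. The class medians were 0.27 in shZMAT2-1 and 0.08 in shZMAT2-2, and -0.04 and -0.30 without control replicate 2.

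Sugar and organic acid families were expressed at lower levels, up to 19.7 FPKM for SLC16A1, the lactate and pyruvate carrier, and 17.8 FPKM for SLC2A8, an intracellular glucose transporter. SLC16A1 had 20.7, 20.5 and 21.6 FPKM in shZMAT2-1, 15.02, 19.6 and 17.3 FPKM in shZMAT2-2, and 26.3, 11.5 and 25.3 FPKM in control. SLC2A8 had 28.4, 12.9 and 28.0 FPKM in shZMAT2-1, 9.18, 14.0 and 17.3 FPKM in shZMAT2-2, and 22.03, 5.82 and 22.9 FPKM in control. Control replicate 2 set the lower end for both. SLC16A3, the lactate exporter of glycolytic cells, had 7.88, 2.70 and 7.87 FPKM in shZMAT2-1, 2.06, 3.64 and 4.01 FPKM in shZMAT2-2, and 10.5, 1.81 and 10.6 FPKM in control. Its log2 fold change was -0.12 in shZMAT2-1 and -0.80 in shZMAT2-2, not called. Its values were -0.80 and -1.48 without control replicate 2, again not called, and with the mitochondrial covariate -0.54 and -0.48 (adjusted p 0.0553 and 0.0481). SLC13A5, the citrate importer of hepatocytes, stood at 15.4 FPKM, and SLC37A4, the glucose-6-phosphate carrier of the endoplasmic reticulum, at 6.06 FPKM.

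Among metal carriers SLC39A14, a zinc and iron importer, had a mean of 68.9 FPKM and SLC39A7, which releases zinc from the endoplasmic reticulum and Golgi, 44.3 FPKM. SLC39A14 had 81.2, 67.0 and 90.6 FPKM in shZMAT2-1, 39.1, 60.2 and 48.5 FPKM in shZMAT2-2, and 104, 32.04 and 97.0 FPKM in control. Control replicate 2 was its lowest library while the other controls were its highest, so its fold change in shZMAT2-2 was -0.50 (limma, not called) and became -1.04 (adjusted p 0.0414) without that library. SLC39A7 had 62.9, 36.1 and 62.2 FPKM in shZMAT2-1, 26.5, 36.0 and 40.8 FPKM in shZMAT2-2, and 57.8, 18.3 and 58.2 FPKM in control. SLC31A1, the copper importer, and SLC40A1, the iron exporter ferroportin, lay at 25.2 and 16.8 FPKM.

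Inorganic ion carriers were led by SLC4A2, the chloride and bicarbonate exchanger, at 38.2 FPKM and SLC20A2, a sodium-phosphate cotransporter, at 27.7 FPKM. SLC4A2 had 52.7, 34.6 and 52.7 FPKM in shZMAT2-1, 21.5, 33.6 and 36.5 FPKM in shZMAT2-2, and 47.9, 17.0 and 47.6 FPKM in control. SLC20A2 had 33.0, 33.4 and 35.2 FPKM in shZMAT2-1, 24.3, 32.5 and 29.7 FPKM in shZMAT2-2, and 24.9, 11.99 and 23.9 FPKM in control. All shZMAT2-1 libraries lay above the controls for SLC20A2, while shZMAT2-2 replicate 1 lay between them (log2 fold change 0.66 in the mean of both arms, limma adjusted p 0.489). The last value was 0.34 without control replicate 2 (adjusted p 0.262) and 0.64 with the mitochondrial covariate (adjusted p 0.00285).

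The smaller classes were led by SLC27A4 at 12.4 FPKM, a fatty acid transport protein, and SLC44A2 at 7.77 FPKM, a choline transporter-like protein. SLC35A2, the UDP-galactose transporter of the Golgi, stood at 20.6 FPKM and SLC35A4 at 17.8 FPKM, and in family SLC66, SLC66A1, a lysosomal exporter of cationic amino acids, at 9.47 FPKM and SLC66A2 at 5.53 FPKM. Apart from SLC44A3 and SLC35A4 the knockdown libraries of these members overlapped the controls.

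**Figure D3:**
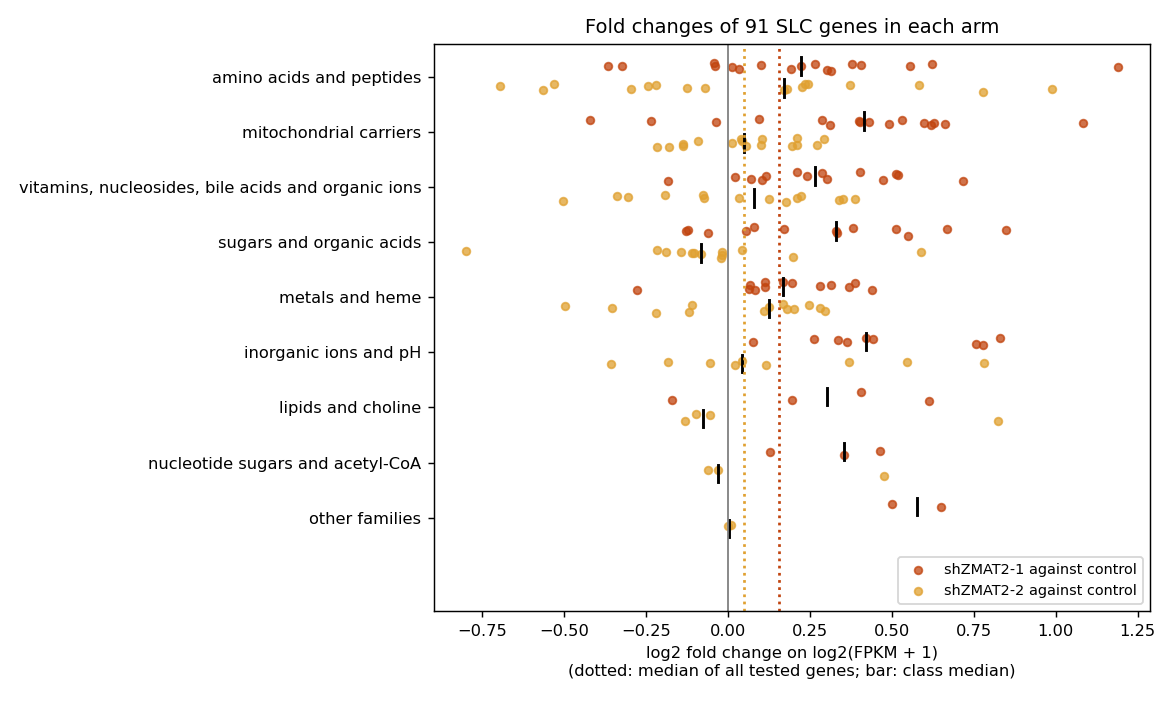
log2 fold change of each of the 91 SLC genes against control on the log2(FPKM + 1) scale, shZMAT2-1 above shZMAT2-2 in each class, with black bars for class medians and dotted lines for the medians of all tested genes (0.16 in shZMAT2-1, 0.05 in shZMAT2-2). The shZMAT2-1 points lie mostly right of 0, the shZMAT2-2 points on both sides, and none was called.

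As a list, the members had a median log2 fold change of 0.31 in shZMAT2-1, against 0.16 over all genes tested, and of 0.02 in shZMAT2-2, against 0.05. In the mean of both arms the median was 0.18, against 0.10 over all genes. A positive estimate was found for 78 of 91 members in shZMAT2-1 (72.9% of all genes), for 49 in shZMAT2-2 (58.4%) and for 70 in the mean of both arms (71.8%). The comparisons share their controls, and leaving out control replicate 2 turned these values round: 35, 25 and 21 members were then positive, with medians of -0.05, -0.32 and -0.17, against -0.05, -0.15 and -0.11 over all genes. Scaling also moved them. In shZMAT2-1 the median of all genes shifted by 0.17 with TPM, by -0.13 with median-of-ratios scaling and by -0.19 with scaling on genes that are not mitochondrially encoded, and 86, 61 and 55 members were then positive. In bulk RNA, fewer cells of a kind and less RNA per cell cannot be told apart.

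**Figure D4:**
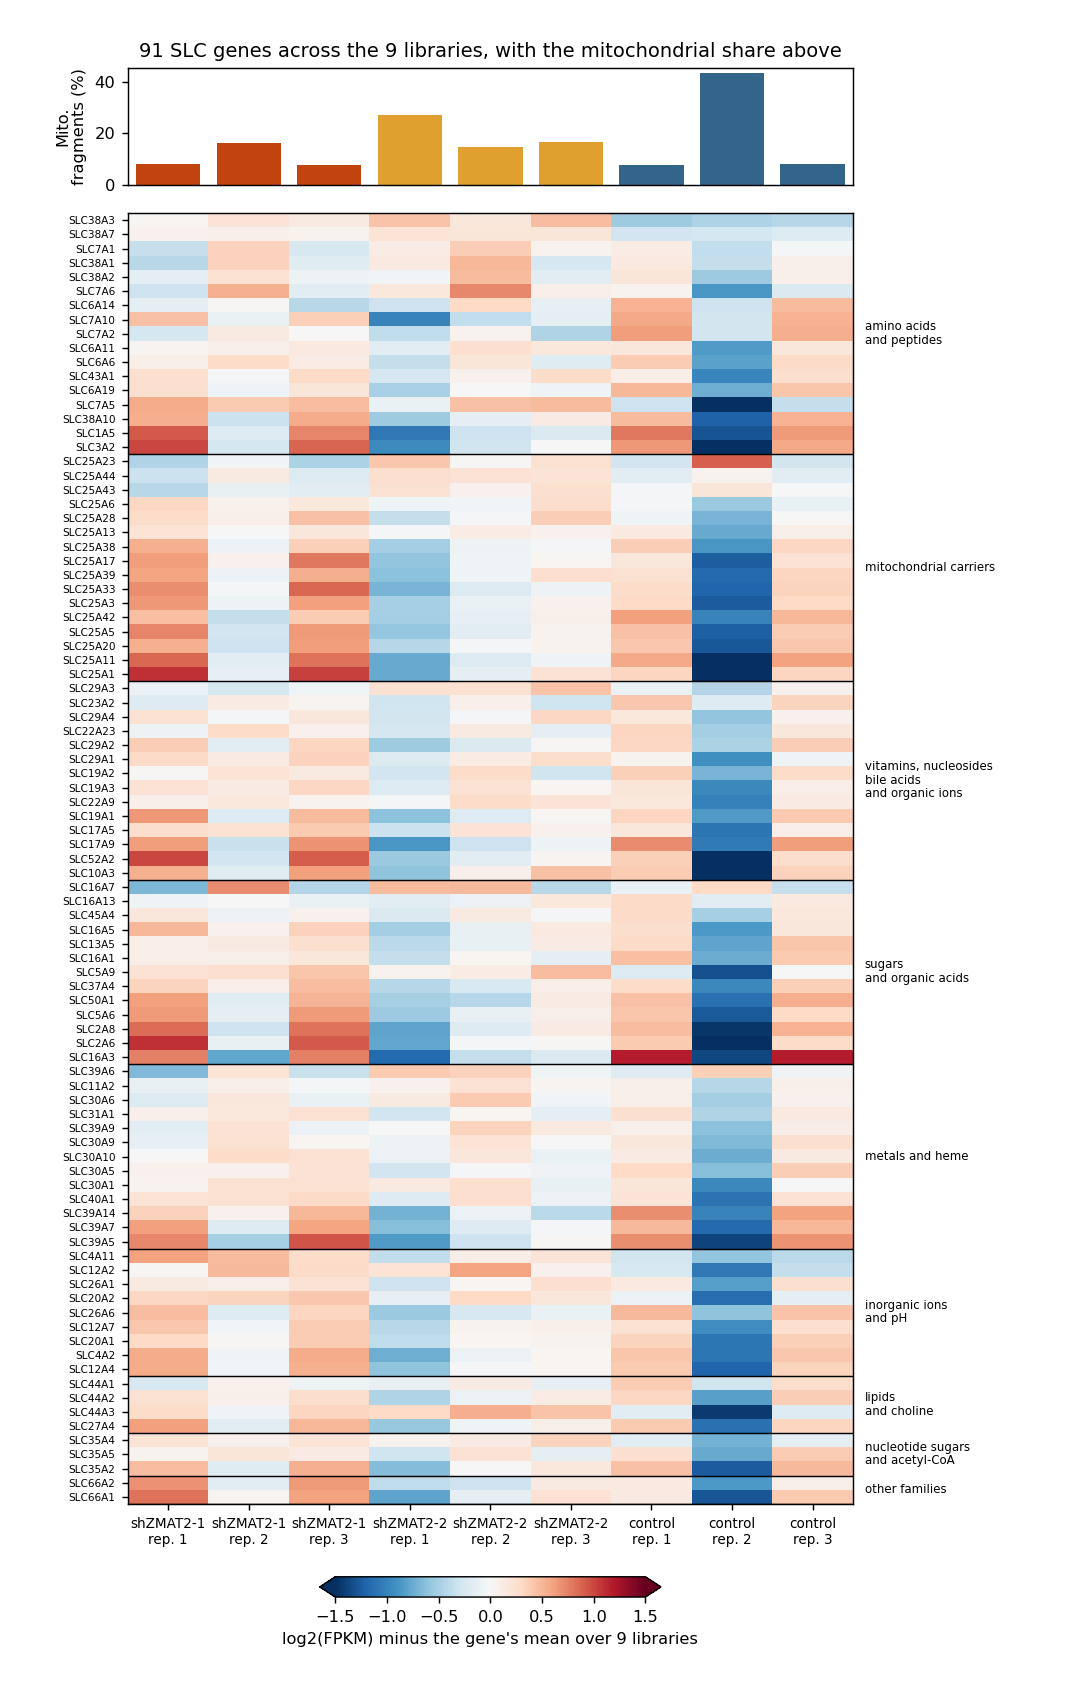
log2 FPKM of the 91 SLC genes (rows, by class and then by the ratio of control replicate 2 to the other controls) in the 9 libraries (columns), each minus the gene's mean, with colours cut off at 1.5 in either direction; bars above give the percent of fragments from mitochondrially encoded genes. Control replicate 2, with the highest bar at 43.2%, is the bluest column, and 78 of the 91 genes are at their lowest there.

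Between libraries the members moved largely together. Of the 91, 84 were lower in control replicate 2 than in both other controls, as were 85.5% of all genes tested, and 5 were higher. The ratio of control replicate 2 to the mean of the other controls had a median of 0.463 over members, 0.566 over all genes tested, and 0.560 for the summed FPKM of genes that are not mitochondrially encoded. It ran from 0.172 for SLC16A3, 0.208 for SLC25A1 and 0.209 for SLC25A11, the oxoglutarate and malate carrier, to 1.39 for SLC39A6, a zinc importer, 1.43 for SLC16A7, a monocarboxylate carrier, and 2.26 for SLC25A23, the ATP-magnesium and phosphate carrier. SLC25A23 had 19.4, 25.8 and 19.1 FPKM in shZMAT2-1, 35.0, 26.9 and 31.1 FPKM in shZMAT2-2, and 21.8, 49.4 and 21.9 FPKM in control. It was the one member whose highest library was control replicate 2. The coefficient of variation (SD over mean) of a member within a group had a median of 14.6% in shZMAT2-1, 19.1% in shZMAT2-2 and 38.8% in control.

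Members with a low ratio had transcripts of higher GC content. The 61 members with a ratio under 0.560 had a median GC content of 56.3% and a median length of 3455 bases, and the other 30 had 51.4% and 4646.5 bases, from the longest transcript in GENCODE 29. Across the 91 members Spearman's rho between GC content and the ratio was -0.38, against -0.36 across 10257 protein-coding genes tested. With transcript length it was 0.37, against 0.33. The genes share their libraries and are not independent, and these values describe them. The relation was thus of about the same size in the members as in all genes.

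**Figure D5:**
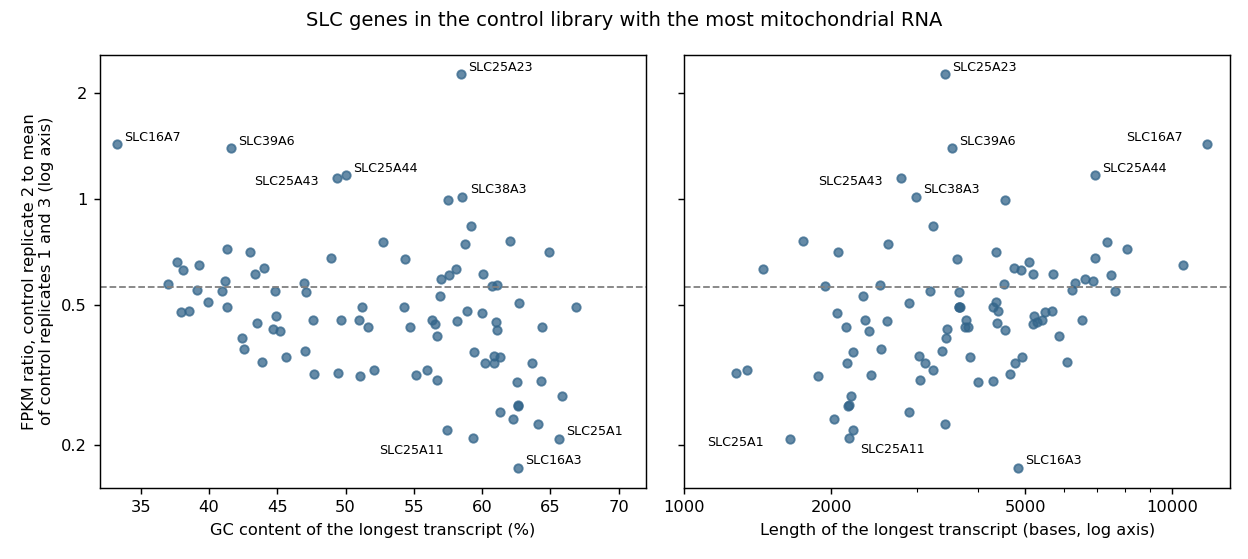
FPKM in control replicate 2 over the mean of control replicates 1 and 3 (log axis) for the 91 SLC genes, against the GC content (left) and the length (right, log axis) of the longest transcript, with the dashed line at the ratio of the summed FPKM of genes that are not mitochondrially encoded (0.560). The extremes are named: SLC25A23 lies highest at 2.26 and SLC16A3 lowest at 0.172.

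The arms were also compared directly. In shZMAT2-2 against shZMAT2-1 the median member had a log2 difference of -0.25, against -0.09 over all genes, and 23 of 91 were positive (38.9% of all genes). No member was called by limma, and 2, SLC4A11 and SLC7A10, had an unadjusted p under 0.05. All shZMAT2-2 libraries lay below all shZMAT2-1 libraries for 12 members (13.2%, against 9.28% of genes) and above for 5 (5.49%, against 5.59%). With scaling on genes that are not mitochondrially encoded the members' median was -0.02 with 44 positive, while that of all genes was 0.12.

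The lowest differences were found for carriers of the cell surface and the citrate carrier. SLC1A5, the glutamine importer, had 9.36, 15.9 and 16.9 FPKM in shZMAT2-2 and 37.3, 17.2 and 32.7 FPKM in shZMAT2-1, with 34.2, 8.04 and 30.7 FPKM in control. Its log2 difference was -0.97 (limma adjusted p 0.657), followed by -0.92 for SLC3A2 and -0.89 for SLC25A1. SLC25A1 had 48.9, 74.9 and 96.1 FPKM in shZMAT2-2 and 178, 76.2 and 168 FPKM in shZMAT2-1, with 103, 21.5 and 103 FPKM in control. For SLC1A5 shZMAT2-1 replicate 2 lay just above shZMAT2-2, and for SLC25A1 and SLC3A2 it lay among the shZMAT2-2 libraries. At the other end stood SLC25A23 at 0.52, SLC39A6 at 0.46 and SLC29A3 at 0.36. SLC29A3, a lysosomal nucleoside transporter, had 6.53, 6.53 and 7.52 FPKM in shZMAT2-2 and 5.24, 4.74 and 5.32 FPKM in shZMAT2-1, with 5.19, 4.11 and 5.83 FPKM in control, so both arms were separate. SLC39A6 had 19.0, 18.3 and 13.8 FPKM in shZMAT2-2 and 9.12, 16.6 and 11.4 FPKM in shZMAT2-1, with 12.6, 18.4 and 13.9 FPKM in control, and its arms overlapped.

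The mitochondrial share ran beside this comparison. It averaged 19.4% ± 6.68 in shZMAT2-2 and 10.8% ± 4.85 in shZMAT2-1 (SD, n = 3 each), and shZMAT2-1 replicate 2, the one with 16.4%, was the library of its arm that lay nearest to shZMAT2-2 for SLC1A5, SLC3A2 and SLC25A1. Across the 91 members rho between transcript GC content and the difference between the arms was -0.49 (-0.42 across all genes), and with length 0.39 (0.41). With the mitochondrial covariate the members' median difference between the arms was 0.06 with 60 positive, in place of -0.25 with 23 positive. That of all genes was 0.09 in place of -0.09. The differences of SLC1A5, SLC3A2 and SLC25A1 were then -0.29, -0.18 and -0.10. Because the share itself differed between the arms, its part and that of the hairpin cannot be told apart here. The cause was not tested.

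Transport genes outside the SLC families were taken from fixed lists. None of 24 tested ABC transporters, 10 P-type ion pump genes, 15 V-type proton pump genes, 14 mitochondrial pores and other carriers, 3 SLCO genes and 3 aquaporins was called by limma in either arm or in their mean. Among 9 tested chaperones and partners of SLC proteins 1 was called, PDZK1, which encodes a scaffold that holds transporters at the apical membrane. PDZK1 averaged 26.2 ± 3.81 FPKM in shZMAT2-1, 24.7 ± 2.20 in shZMAT2-2 and 9.17 ± 4.03 in control (SD, n = 3 each), and it rose in the mean of both arms (log2 fold change 1.46, limma adjusted p 0.0357). Without control replicate 2 it was 1.11 (adjusted p 0.0140), and leaving out any other library gave an adjusted p of 0.0521 to 0.128. The call was also lost with no filter (limma adjusted p 0.0906), a filter of 5 FPKM (0.0511) and TPM (0.954). It held with a pseudocount of 0.1, a replicate block, the mitochondrial covariate and the other scalings. PDZK1 was called in neither arm alone (limma adjusted p 0.129 in shZMAT2-1 and 0.0754 in shZMAT2-2). BSG, the chaperone of the lactate carriers and the highest of that list at 167 FPKM, had a fold change of -0.01.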

How the data were processed

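Per the labels' protocols, poly(A) RNA of Huh7 cells was sequenced as 9 strand-specific libraries. The authors deposited FPKM for 27421 genes, and per the submitters' processing notes the tools were HISAT, featureCounts and DESeq2, with no version. The build and the strand setting of the counting are not given in the sources used here. All 91 members overlap, on the same strand, their position in GENCODE 29. Because 37 members overlap a gene on the other strand and 10 a gene on the same strand, their values may hold reads of a neighbour. FPKM is relative to the whole library, so a larger mitochondrial share leaves a smaller share for all other genes together. Single genes need not follow, and 5 members were higher in control replicate 2 than in both other controls. How far this share accounts for the change of a gene was not tested.

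limma 3.58.1 in R 4.3.3 was fitted with a trend to log2(FPKM + 1) of 11245 genes (1 FPKM or more in 3 or more libraries), with the group as sole term and all 9 libraries. Fold changes on this scale understate those of low genes. Tests were two-sided, with Benjamini-Hochberg adjustment over all genes tested. Depth came from low FPKM values of single-exon genes, those under 12 fragments. Of 631 to 752 such values per library, 99.9% to 100% lay less than 0.1 fragments from a whole number. The fit was tested on simulated data. Tables and figures used Python 3.11.15, pandas 2.3.3, numpy 2.4.6 and matplotlib 3.10.9.

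The members, lists, classes, tests and alternatives were chosen with earlier results of these data known. Named were the upper 2 members of each class by level, the members whose knockdown and control libraries do not overlap, the 3 extremes at either end of the difference between the arms and of the ratio of control replicate 2 to the other controls, the 3 genes on either side of the limit, called genes of the other lists and the highest of a list. Further members were named for their role. Alternatives were a pseudocount of 0.1, filters of none and of 5 FPKM, scaling by TPM, median of ratios or nuclear genes, a replicate block, a mitochondrial covariate, a fit on the groups compared, and leaving out libraries.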

Additional observations from a re-analysis of the deposited data

How the results depend on the processing

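No SLC member was called by limma in any of the 4 comparisons with a pseudocount of 0.1, no filter, a filter of 5 FPKM, TPM or a fit on only the groups compared, which for the mean of both arms is the main fit itself. Members called in shZMAT2-1, in shZMAT2-2 and in the mean of both arms numbered 1, 2 and 4 with median-of-ratios scaling (0.717%, 1.76% and 1.93% of all genes), 1, 2 and 2 with scaling on genes that are not mitochondrially encoded (0.489%, 1.47% and 1.65%), and 7, 15 and 16 with the mitochondrial covariate, which called 3.73%, 9.84% and 9.75% of all genes. Between the arms these settings called 0. The 16 were 15 higher and 1 lower, SLC16A3 (-0.51, limma adjusted p 0.0198). Among the 15 were all 7 members whose knockdown libraries lay above the controls. That separation was read from the same values, so it is no separate support. Leaving out each library in turn gave 0 to 0 members in shZMAT2-1, 0 to 2 in shZMAT2-2, 0 to 1 in the mean of both arms and 0 to 0 between the arms. The upper values came without control replicate 2: SLC38A3 and SLC39A14 in shZMAT2-2, and SLC38A3 in the mean of both arms. They made up 2.2% and 1.1% of the members, close to the 2.35% and 1.28% of all genes called there. Without control replicate 2 and shZMAT2-1 replicate 2 together, the counts were 0 in shZMAT2-1 and 43 in shZMAT2-2 (7 higher, 36 lower). They were 5 in the mean of both arms and 45 between the arms (8 higher, 37 lower). In the same order these were 0%, 47.3%, 5.49% and 49.5% of the members. Of the 11111 genes tested there, 128, 3400 (30.6%), 454 (4.09%) and 4726 (42.5%) were called. That pair of libraries was set apart by earlier results of these data, so these calls are no independent evidence. The cause of these changes was not tested.

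With the replicate number as a replicate block, 0 members were called in each of the 4 comparisons, and 13, 52, 58 and 0 of all genes in place of 9, 66, 61 and 0. Deviations of same-numbered libraries correlated at 0.61 to 0.777 between shZMAT2-1 and control, where 3 of 3 pairs were over 0.1 and 4 of 6 libraries correlated best with their own number. They correlated at -0.763 to 0.613 between shZMAT2-2 and control, with 1 of 3 over 0.1 and 2 of 6 best with their own number. The numbers thus pair shZMAT2-1 with control by the limit of 0.1 but not shZMAT2-2. The mitochondrial share was largest in replicate 2 of shZMAT2-1 (16.4%) and of control (43.2%), but in replicate 1 of shZMAT2-2 (27.0%). Pairing by number was not tested apart from that share. The block changed no call of a member or of ZMAT2.

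Followed here were 30 fold changes: ZMAT2, the 7 members with all knockdown libraries above the controls, and the named extremes between the arms. Of 562 alternative values, 499 kept their direction and side of the threshold and 47 passed it newly. The 16 that no longer passed were all for ZMAT2, and 0 changed sign. These members were picked for separation or size in the same data, which makes a change of sign unlikely. Without control replicate 2, the positive members fell from 78, 49 and 70 to 35, 25 and 21 in shZMAT2-1, shZMAT2-2 and their mean. The interval of a median member, 0.613 to either side on the log2 scale in an arm, is that of 3 libraries a group.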

Other observations

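SLC48A1, a heme transporter of the endosomal and lysosomal membrane, lay just under the limit with a mean of 4.64 FPKM. It is the 1 called gene among the 90 tested SLC genes of the same symbol form that are not members. It was named after its values were seen. It had 5.01, 4.64 and 4.39 FPKM in shZMAT2-1, 5.76, 6.80 and 8.30 FPKM in shZMAT2-2, and 2.71, 1.496 and 2.62 FPKM in control, and the groups did not overlap. It rose in shZMAT2-2 (log2 fold change 1.29, SE 0.20, limma adjusted p 0.0227) and in the mean of both arms (1.05, SE 0.17, adjusted p 0.0287), and had 0.81 in shZMAT2-1 (adjusted p 0.272). Control replicate 2 was the lowest library here as well. Without it the fold change in shZMAT2-2 was 1.10 (adjusted p 0.00959). Leaving out any other library gave an adjusted p of 0.0406 to 0.15 there and of 0.0474 to 0.103 in the mean of both arms, so the call is lost in most of these fits. Both calls were also lost with TPM and with a filter of 5 FPKM (limma adjusted p 0.0544 in shZMAT2-2 and 0.058 in the mean). With no filter the call in the mean was lost (0.0641). Both held with a pseudocount of 0.1, a replicate block, the mitochondrial covariate and the other scalings.

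The genes set aside by the rule had their highest libraries among the controls. SLC25A15, the ornithine carrier of the urea cycle, had 14.6, 11.5 and 15.3 FPKM in shZMAT2-1, 7.74, 10.5 and 9.58 FPKM in shZMAT2-2, and 18.3, 5.62 and 17.2 FPKM in control. SLC2A1, the glucose transporter of most growing cells, had 8.25, 5.91 and 7.78 FPKM in shZMAT2-1, 4.65, 7.02 and 7.65 FPKM in shZMAT2-2, and 9.59, 2.81 and 9.90 FPKM in control. SLC7A11, the cystine and glutamate exchanger, had 2.96, 3.97 and 3.21 FPKM in shZMAT2-1, 3.28, 4.10 and 2.34 FPKM in shZMAT2-2, and 5.15, 3.29 and 4.61 FPKM in control. For SLC25A15 and SLC2A1, control replicates 1 and 3 lay above and control replicate 2 below all knockdown libraries.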
